A study of Mus musculus with 24 samples.

Results

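The data described here concern 10 mouse genes for granule proteins and alarmins of neutrophils, S100a8, S100a9, Camp, Ngp, Ltf, Lcn2, Wfdc21, Abca13, Lrg1 and Mmp8. They were taken by symbol from 55335 genes listed in the tables of total RNA and from 33967 gene names in the tables of surface RNA, and all 10 were found in both. The genes were picked because their levels differed between the groups and cell types described here, so those levels and differences are given as a description and no p is given for them.

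Neutrophils are short-lived phagocytes that leave the bone marrow with most of their weapons already packed into granules. Primary granules with myeloperoxidase and elastase are filled first, at the promyelocyte stage, and the specific and gelatinase granules follow later in maturation, so the transcripts of granule proteins are found mainly in marrow precursors and less in blood neutrophils. S100a8 and S100a9 encode the subunits of calprotectin, a calcium-binding complex of the cytosol that binds zinc and manganese and, once released, acts as an alarmin through Toll-like receptor 4. Both stay transcribed in mature neutrophils and in monocytes.

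The study examined RNA on the outer face of the plasma membrane with AMOUR, in which T7 RNA polymerase amplifies RNA in situ from a random T7 probe annealed to intact, fixed cells. Surface RNA was profiled in 15 libraries from C57BL/6 mice of genotype WT, with 3 each for B cells, T cells and NK cells from spleen and for monocytes and hematopoietic stem/progenitor cells (HSPCs) from bone marrow. The T cells came from a kit for CD8 T cells, the HSPCs were enriched by removing lineage-positive cells, and the monocytes came from a monocyte kit, so each group is a magnetic enrichment and not a sort by marker. Total RNA was profiled in 9 libraries from mouse peripheral blood mononuclear cells (PBMCs) of wild type genotype, with 3 each under the treatment labels ct, WT and Y, whose meaning the labels do not give, nor do they give the age of the animals or whether the libraries of a group came from separate animals. Test results therefore measure the spread between these libraries, which may be technical.

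The PBMC tables held 4686387 to 9055761 counts per library, of which 50.5% to 57.0% fell on 1 ribosomal RNA gene. The depth of the surface tables is unknown, since they give transcripts per 1000000 (TPM) only. Marker genes of the labelled cell type had their highest summed TPM in the libraries of that label for B cells (226 to 353 TPM), T cells (24.8 to 71.8), NK cells (70.9 to 220.3) and monocytes (1841 to 2137). The list of HSPC markers was at 10.9 to 17.02 TPM in HSPCs and at 30.2 to 35.1 in monocytes, and in HSPCs it overlapped with B cells (10.2 to 17.03) and NK cells (8.31 to 16.2). Of the 4 HSPC markers tested, Cd34 and Kit were higher in HSPCs than in the spleen cells (log2 fold changes 1.72 and 1.39, limma adjusted p = 3.83e-07 and 0.00216) and Ly6a was lower (-1.63, limma adjusted p = 6.26e-05), so the list did not set the HSPC libraries apart. Transcripts of protein-coding type made up 16.9% to 18.1% of TPM in monocytes and 0.645% to 2.96% in the other cell types. Monocytes were sequenced on another platform. For them 149488 transcripts were listed, against 102168 for each of the other cell types. Cell type, platform, set of listed transcripts and the protein-coding share therefore cannot be told apart for monocytes.

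The 10 genes lie on 5 chromosomes (mm10/GRCm38, GENCODE annotation). S100a8 (chr3:90668978-90670035, plus strand) and S100a9 (chr3:90692632-90695721, minus strand) lie 22.6 kb apart on chromosome 3. Camp (chr9:109847379-109849617, minus strand), Ngp (chr9:110419747-110423012, plus strand) and Ltf (chr9:111019271-111042767, plus strand) lie in this order on chromosome 9, with 570.1 and 596 kb between them, and Mmp8 (chr9:7558456-7568485, plus strand) is far away on the same chromosome. Lcn2 is on chromosome 2, Wfdc21 and Abca13 on chromosome 11, and Lrg1 on chromosome 17. The gene identifiers of the annotation and of the PBMC tables were the same for all 10 genes.

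The sequences upstream of 5 of the genes are shown because they stand for both patterns found in the PBMCs, S100a8, S100a9 and Mmp8 with lower levels in WT than in ct and Ngp and Ltf with higher levels. They come from RefSeq (GRCm38.p6), run 5′ to 3′ on the strand of the gene and begin 250 bases before the RefSeq start. They end at that start for S100a9 and Mmp8, and before it for S100a8 (157 bases printed), Ngp (189) and Ltf (229), where the GENCODE gene begins earlier. Capitals mark matches to the C/EBP letters TTNNGNAA or the PU.1 letters GAGGAAG on either strand. C/EBP proteins and PU.1 are transcription factors of the granulocyte lineage.
S100a8: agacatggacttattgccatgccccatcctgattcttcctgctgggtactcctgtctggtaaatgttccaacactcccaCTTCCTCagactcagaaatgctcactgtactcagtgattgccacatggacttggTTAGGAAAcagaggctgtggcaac
S100a9: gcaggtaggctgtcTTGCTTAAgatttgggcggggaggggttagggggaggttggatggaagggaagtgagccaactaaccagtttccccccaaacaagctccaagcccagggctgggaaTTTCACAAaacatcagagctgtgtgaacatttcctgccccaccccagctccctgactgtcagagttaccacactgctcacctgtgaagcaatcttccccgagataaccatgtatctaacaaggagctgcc
Mmp8: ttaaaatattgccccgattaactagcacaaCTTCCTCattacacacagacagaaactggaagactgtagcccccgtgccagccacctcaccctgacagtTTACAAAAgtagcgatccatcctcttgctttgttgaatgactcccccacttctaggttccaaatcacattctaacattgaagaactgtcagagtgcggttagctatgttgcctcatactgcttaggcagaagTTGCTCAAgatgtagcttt
Ngp: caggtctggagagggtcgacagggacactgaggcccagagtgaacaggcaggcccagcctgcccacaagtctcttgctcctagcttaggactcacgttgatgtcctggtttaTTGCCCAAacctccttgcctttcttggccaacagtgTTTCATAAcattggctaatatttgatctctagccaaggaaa
Ltf: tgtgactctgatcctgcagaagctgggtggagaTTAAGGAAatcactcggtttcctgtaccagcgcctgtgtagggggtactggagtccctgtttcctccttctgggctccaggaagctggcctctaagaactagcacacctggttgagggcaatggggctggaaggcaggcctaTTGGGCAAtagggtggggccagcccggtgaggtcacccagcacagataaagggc

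The 250 bases before the RefSeq start were searched in the 9 members with an entry (all but Wfdc21) and in all 32851 mouse promoters. The C/EBP letters occurred in 6 members and in 36.8% of all promoters. The PU.1 letters occurred in 3 members (S100a8, Lcn2 and Mmp8) and in 10.6% of all promoters. The letters of a TATA box, TATAAA, occurred in 1 member, S100a8, and in 12.4% of all promoters. The TATAAA of S100a8 and 1 of the 3 C/EBP matches of Ngp lie beyond the printed stretch. Both strands were searched, no match printed here overlaps another, and a match is a description of the letters only. The 5 promoters printed all hold C/EBP letters. Among all members with an entry, these letters occurred in 4 of the 5 whose WT libraries lay below ct (not in Lrg1) and in 2 of the 4 whose WT libraries lay above it (not in Camp and Abca13).

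In total RNA of PBMCs the alarmin pair dominated. Per gene length, S100a9 was the most abundant member in all 3 groups, at 27.7 ± 3.75 TPM in ct, 20.7 ± 3.02 in WT and 57.3 ± 2.05 in Y (SD, n = 3), followed by S100a8 at 20.6 ± 2.42, 12.6 ± 2.77 and 45.2 ± 2.81 TPM. The ranges of the pair did not overlap in any group. Lcn2, the siderophore-binding lipocalin, came next in ct with 2.28 ± 0.403 TPM and in Y with 4.69 ± 0.436 TPM. In WT the next place was taken by Ngp (1.85 ± 0.170 TPM), whose libraries overlapped with those of Lcn2 (1.49 ± 0.355 TPM). In ct, Lcn2 overlapped with Lrg1 (1.49 ± 0.368 TPM). Together S100a8 and S100a9 made up 81.6% to 89.2% of the summed TPM of the 10 genes.

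S100a8 was measured at 28.4, 24.9 and 29.8 counts per 1000000 (CPM, scaled by TMM) in the ct libraries, at 15.8, 18.5 and 16.5 in WT, with 65.9, 70.3 and 68.8 in Y. The 3 groups did not overlap, with WT lowest and Y highest. S100a9 gave 41.4, 35.1 and 42.9 CPM in ct, 28.0, 30.3 and 31.7 in WT, with 100.4, 91.0 and 87.9 in Y. The groups stood in the same order and again did not overlap. The fitted log2 fold change of S100a8 was -0.71 ± 0.10 (SE) for WT against ct, 1.30 ± 0.09 for Y against ct and 2.01 ± 0.10 for Y against WT. For S100a9 the same values were -0.41 ± 0.10, 1.22 ± 0.09 and 1.63 ± 0.10. The 3 comparisons share their libraries in pairs and are not independent. A different number of cells of a type and a different amount of RNA per cell cannot be told apart in bulk RNA. A preparation of mononuclear cells is meant to leave most neutrophils behind, and how these PBMCs were prepared is not given in the sources used here.

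Ngp, which encodes neutrophilic granule protein, a relative of the cathelicidins, gave 2.38, 3.00 and 3.56 CPM in ct, 7.31, 6.97 and 7.92 in WT, with 15.5, 13.1 and 11.1 in Y. Here WT stood above ct, and Y above both. Ltf, which encodes the iron-binding lactoferrin of specific granules, gave 2.97, 3.75 and 2.61 CPM in ct, 6.55, 6.21 and 5.80 in WT, with 7.86, 7.94 and 9.04 in Y. All WT libraries were again above all ct libraries. The log2 fold changes of WT against ct were 1.31 ± 0.19 for Ngp and 1.01 ± 0.18 for Ltf, and those of Y against ct were 2.12 ± 0.18 and 1.43 ± 0.18. Against WT, Y gave 0.82 ± 0.15 for Ngp and 0.42 ± 0.16 for Ltf, of which the second was not called.

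Lrg1, a leucine-rich glycoprotein of specific granules that modulates TGF-beta signalling, behaved in the opposite way between ct and WT. Its levels were 6.07, 9.14 and 5.81 CPM in ct, 2.40, 2.03 and 2.69 in WT, with 10.3, 10.7 and 8.91 in Y. WT was below all other libraries, while ct and Y overlapped through the ct 2 library. Its log2 fold change was -1.54 ± 0.22 for WT against ct and 2.06 ± 0.21 for Y against WT, and 0.52 ± 0.17 for Y against ct, which was not called.

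Lcn2 was at 6.78, 7.49 and 6.05 CPM in ct, 5.56, 3.80 and 3.68 in WT, with 14.6, 16.5 and 14.97 in Y. Mmp8, the neutrophil collagenase, was at 4.64, 3.45 and 4.39 CPM in ct, 3.05, 2.53 and 2.40 in WT, with 13.1, 9.11 and 8.39 in Y. For both genes every WT library was below every ct library, but neither difference was called (log2 fold changes -0.61 ± 0.18 and -0.64 ± 0.24). Without WT 1, Lcn2 was called lower in WT (-0.84). For both, Y was above the other groups, with log2 fold changes against ct of 1.20 ± 0.15 and 1.23 ± 0.19.

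The remaining 3 genes rest on few counts. Camp, the cathelicidin antimicrobial peptide, had 9, 1 and 7 counts in ct, 15, 15 and 18 in WT, with 10, 9 and 22 in Y. Abca13, a large lipid transporter, had 4, 2 and 2 counts in ct, 11, 8 and 6 in WT, with 9, 18 and 14 in Y. Both had more counts in every WT library than in any ct library, and neither difference was called (log2 fold changes 1.45 ± 0.47 and 1.56 ± 0.47). Wfdc21, a small protein with a whey acidic protein domain, had 3, 5 and 7 counts in ct, 6, 7 and 4 in WT, with 12, 27 and 23 in Y. Its libraries stood apart in Y, where the log2 fold change was 2.24 ± 0.36 against ct and 2.10 ± 0.35 against WT. For Abca13, Y gave 2.53 ± 0.42 against ct, which was called, and 0.97 ± 0.34 against WT, which was not. For Camp the values were 1.49 ± 0.48 and 0.04 ± 0.39, and neither was called.

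**Figure D1:**
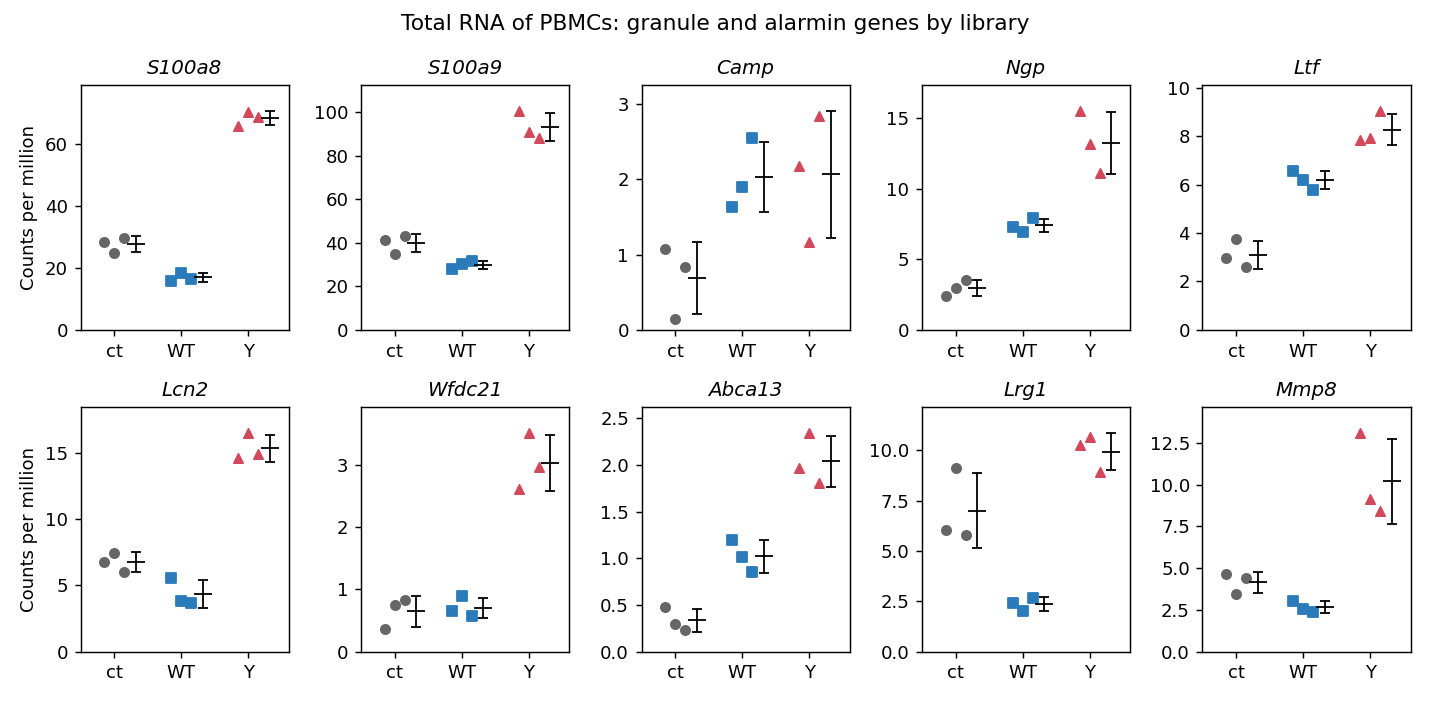
Level of each of the 10 genes in total RNA of PBMCs, in CPM scaled by TMM (y axis, linear and starting at 0), for the 3 libraries each of ct (circles), WT (squares) and Y (triangles), with the mean and SD as a bar. All Y libraries lie above all ct libraries for 9 of 10 genes (5.70% of all genes tested). All WT libraries lie below all ct libraries for 5 genes (8.62%) and above them for 4 (7.62%).

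Taking the members as a set, Y against ct had 8 of 10 genes called higher at an adjusted p below 0.05 (Camp and Lrg1 were not called). Over all 11635 genes tested, 0.266% were called higher. Y against WT had 7 of 10 called higher (not Abca13, Ltf and Camp), where 0.438% of all genes were. WT against ct had 2 called higher, Ngp and Ltf, and 3 called lower, S100a8, S100a9 and Lrg1, beside 0.765% and 1.60% of all genes. Without the Y 2 library, the deepest of its group, Abca13 and Wfdc21 were no longer called in Y against ct, and Ngp and Wfdc21 no longer in Y against WT. The call of Ngp in Y against WT was also lost without WT 2 or without Y 1. The call of S100a9 in WT against ct was lost without any 1 of ct 1, ct 3, WT 1, WT 2, WT 3, Y 2 or Y 3, with log2 fold changes between -0.35 and -0.44. Since the members were picked on these contrasts, nothing is read from the counts.

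By non-overlap of the libraries, Y lay above ct for 9 members (5.70% of all genes) and above WT for 9 members (8.54%). WT lay above ct for 4 members, Camp, Ngp, Ltf and Abca13 (7.62%), and below it for 5, S100a8, S100a9, Lcn2, Lrg1 and Mmp8 (8.62%). Wfdc21 overlapped.

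**Figure D2:**
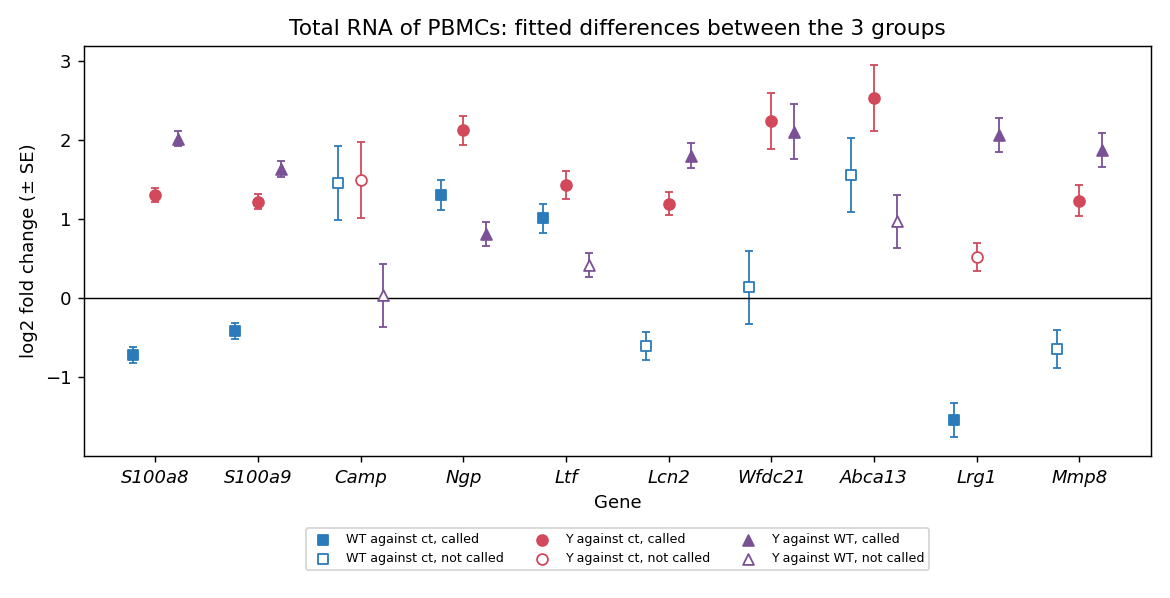
Fitted log2 fold change (y axis) of each gene with its standard error for the 3 comparisons of PBMC groups. Filled symbols mark calls at an adjusted p below 0.05 and open symbols differences that were not called. WT against ct (squares) falls on both sides of 0, from -1.54 for Lrg1 to 1.56 for Abca13, while Y against ct (circles) is above 0 for all 10 genes.

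The make-up of the set shifted accordingly. Camp, Ngp and Ltf together made up 2.62% to 3.57% of the summed TPM of the 10 genes in ct, 9.34% to 10.1% in WT and 3.83% to 5.14% in Y. Per count of S100a8 there were 0.0837 to 0.120 counts of Ngp in ct, 0.377 to 0.479 in WT and 0.161 to 0.235 in Y. The ratio was highest in WT and the groups did not overlap, although Ngp itself was highest in Y.

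Other genes of granules and mature neutrophils were examined as lists. Of 14 measured other genes of the specific and gelatinase granules, 4 were higher in Y than in ct and none lower. These were Mmp25 (log2 fold change 1.39 ± 0.20, edgeR adjusted p = 0.00225), Mmp9 (1.18 ± 0.11, edgeR adjusted p = 2.00e-05), Cd177 (1.18 ± 0.16, edgeR adjusted p = 0.00128) and Anxa1 (0.93 ± 0.13, edgeR adjusted p = 0.00218), of which Anxa1 was named after its value was seen. Mmp9 encodes gelatinase B, the name-giving protease of gelatinase granules, Mmp25 a membrane-bound metalloprotease, Cd177 a surface antigen of neutrophils and Anxa1 the glucocorticoid-induced annexin A1. Mmp9 was at 12.2 ± 1.02 CPM in ct, 12.3 ± 1.55 in WT and 27.5 ± 0.447 in Y. The same 4 genes and Hp, the haptoglobin gene, were the 5 of 14 called higher in Y against WT, where the log2 fold changes were 1.41 for Mmp25, 1.17 for Mmp9, 1.126 for Anxa1, 1.06 for Cd177 and 0.72 for Hp, the last 2 named after their values were seen. The call of Hp was lost without ct 1, ct 2, WT 1, WT 2, Y 1 or Y 2 (0.57 to 0.72) and with the replicate number as a block (0.72). In WT against ct none of the 14 was called by edgeR or DESeq2, and 3 had an unadjusted p below 0.05. Cyba, Cybb and Lyz2, which the monocytes of blood also express, were among the genes not called in any of the 3 comparisons.

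Of 13 measured genes of mature blood neutrophils, 2 were higher in Y than in ct, Retnlg (1.21 ± 0.12, edgeR adjusted p = 3.81e-05) and Hdc (0.71 ± 0.15, edgeR adjusted p = 0.0409). In Y against WT 4 of 13 were higher, Fpr1 (1.92), Fpr2 (1.27), Retnlg (1.00) and Cxcr2 (0.75, named after its value was seen). Retnlg encodes resistin-like gamma, Fpr1 and Fpr2 the formyl peptide receptors and Cxcr2 the receptor that draws neutrophils to CXC chemokines. Csf3r, the G-CSF receptor, gave 40.8 ± 2.07 CPM in ct, 46.5 ± 1.95 in WT and 48.7 ± 5.50 in Y, and was not called. In WT against ct 1 of 13 was lower, Clec4d (-1.17 ± 0.28, edgeR adjusted p = 0.0381), and none higher. The call of Hdc was lost without any 1 of ct 1, ct 2, WT 1, Y 1, Y 2 or Y 3 (log2 fold changes 0.64 to 0.76), and that of Fpr2 without WT 2, Y 2 or Y 3 (1.17 to 1.24). The call of Fpr1 was lost without any library but ct 3 or WT 3 (1.60 to 2.08), and that of Clec4d without any but ct 1 (-1.26 to -0.91). With the replicate number as a block neither Hdc nor Fpr1 was called (0.71 and 1.91), and with DESeq2 Hdc was not (0.72). Of this list DESeq2 called 1 gene in Y against ct, 3 in Y against WT and none in WT against ct.

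The primary granules were at the limit of detection. Of 7 genes on the primary granule list, 1 (Ctsc) passed the filter on low counts, and 3 to 5 of the 7 had no count in a given library. Of 7 measured other S100 genes and alarmins, S100a6 was higher in Y against both ct (0.72 ± 0.13, edgeR adjusted p = 0.00856) and WT (0.89 ± 0.13, edgeR adjusted p = 0.00140). Of 5 measured protease inhibitors, Wfdc17, which shares the whey acidic protein domain with Wfdc21, was higher in Y than in WT (1.68 ± 0.30, edgeR adjusted p = 0.00752). Without Y 3, S100a6 was no longer called against ct (0.61) nor Wfdc17 against WT (1.59). DESeq2 called no protease inhibitor in Y against WT.

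Among 9 measured regulators of granulocyte differentiation, Cebpb, which encodes the C/EBP factor of emergency granulopoiesis, was lower in Y than in WT (-0.74 ± 0.12, edgeR adjusted p = 0.00353) and none was higher. The call was lost without Y 3 (-0.67). Its levels were 22.8 ± 3.72 CPM in ct, 30.5 ± 1.87 in WT and 18.3 ± 1.34 in Y. No regulator was called in the comparisons with ct by edgeR or DESeq2, with 2 at an unadjusted p below 0.05 in WT against ct and 1 in Y against ct. Among the 8 measured receptors and adaptors that bind the secreted products, such as Tlr4, Ly96 and Cd14, none was called by edgeR or DESeq2 in any PBMC comparison, with 1 or 2 at an unadjusted p below 0.05 in each.

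Some markers of other blood cells also differed between the groups, in other orders than the 10 genes. Summed over the list, erythroid markers were at 7006 to 8390 CPM in ct, 4347 to 5039 in WT and 4518 to 5097 in Y, and 9 of 9 measured genes were lower in WT and 8 of 9 in Y than in ct. In Y the count was 4 without Y 2 and 1 without Y 3. Slc4a1, the band 3 anion exchanger of red cells, had log2 fold changes of -0.93 and -1.01 (edgeR adjusted p = 1.67e-04 and 2.70e-05). Platelet markers were at 510.2 to 557 CPM in ct, 322 to 364 in WT and 407 to 418 in Y, with 8 of 8 lower in WT (5 without WT 1 or WT 2 and 4 without ct 2). In Y against ct 2 of 8 were lower, Pf4 and Ppbp, and neither was with the replicate number as a block or on leaving out any 1 library of WT or Y, while leaving out any 1 ct library kept 1 of the 2. Between Y and WT no erythroid or platelet marker was called by edgeR or DESeq2, and 1 and 6 of them had an unadjusted p below 0.05. NK cell markers were at 71.4 to 75.2 CPM in ct, 85.1 to 92.3 in WT and 68.2 to 72.2 in Y. Of 7 measured, Klrb1c (1.11 ± 0.28, edgeR adjusted p = 0.0484) and Ncr1 (0.77 ± 0.18, edgeR adjusted p = 0.0272) were higher in WT than in ct. The call of Klrb1c was lost with no filter, with the replicate number as a block and on leaving out any 1 library (1.06 to 1.17). That of Ncr1 was lost with DESeq2 (0.77) and without ct 2, ct 3 or WT 1 (0.65 to 0.75). DESeq2 called no NK cell marker in WT against ct. Of 9 measured monocyte markers, Ly6c2, an antigen of classical monocytes, was higher in WT than in ct (0.64), and F13a1, the gene of coagulation factor XIII subunit A, was lower (-0.36, edgeR adjusted p = 0.0399). Neither was called with DESeq2 (0.65 and -0.35). F13a1 was also not called with no filter (-0.35), with the replicate number as a block (-0.36), or on leaving out any library except WT 3 (-0.37 to -0.28). In Y against WT, Ly6c2 (-0.77) and Csf1r (-0.46) were lower, the second not with DESeq2. Without Y 3 neither of these differences between Y and WT was called (-0.70 and -0.44), and that of Csf1r was also lost without WT 2, WT 3, Y 1 or Y 2. Markers of eosinophils and basophils, the other granulocytes, summed to 2.10 to 3.80 CPM in ct, 4.31 to 4.7997 in WT and 5.81 to 7.64 in Y. The height of Y in this sum was that of 1 gene, Ccr3, the eotaxin receptor, at 1.19 to 2.25 CPM in ct, 1.65 to 2.73 in WT and 4.13 to 5.89 in Y. The other 7 together were at 0.599 to 1.54 CPM in ct, 1.84 to 2.66 in WT and 1.17 to 1.75 in Y, highest in WT, and none of them passed the filter on low counts. Ccr3 was higher in Y than in ct (1.63 ± 0.29, edgeR adjusted p = 0.00886) and than in WT (1.15 ± 0.27, edgeR adjusted p = 0.0450). The first call was lost without ct 1, Y 1 or Y 2 (1.43 to 1.56), and the second without ct 2 or any 1 library of WT or Y (0.96 to 1.31), with DESeq2 (1.17) and with the replicate number as a block (1.17). Of 5 measured cell cycle genes Top2a was higher in Y than in ct (0.85) and than in WT (1.09), the first not without ct 1, ct 2, Y 2 or Y 3. No B or T cell marker was called by edgeR or DESeq2 in any PBMC comparison, with at most 2 of 8 at an unadjusted p below 0.05. The part of these lists in the differences of the 10 genes was not tested. Summed, the 10 genes were at 88.0 to 97.0 CPM in ct, 72.2 to 74.7 in WT and 216.7 to 234.4 in Y.

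**Figure D3:**
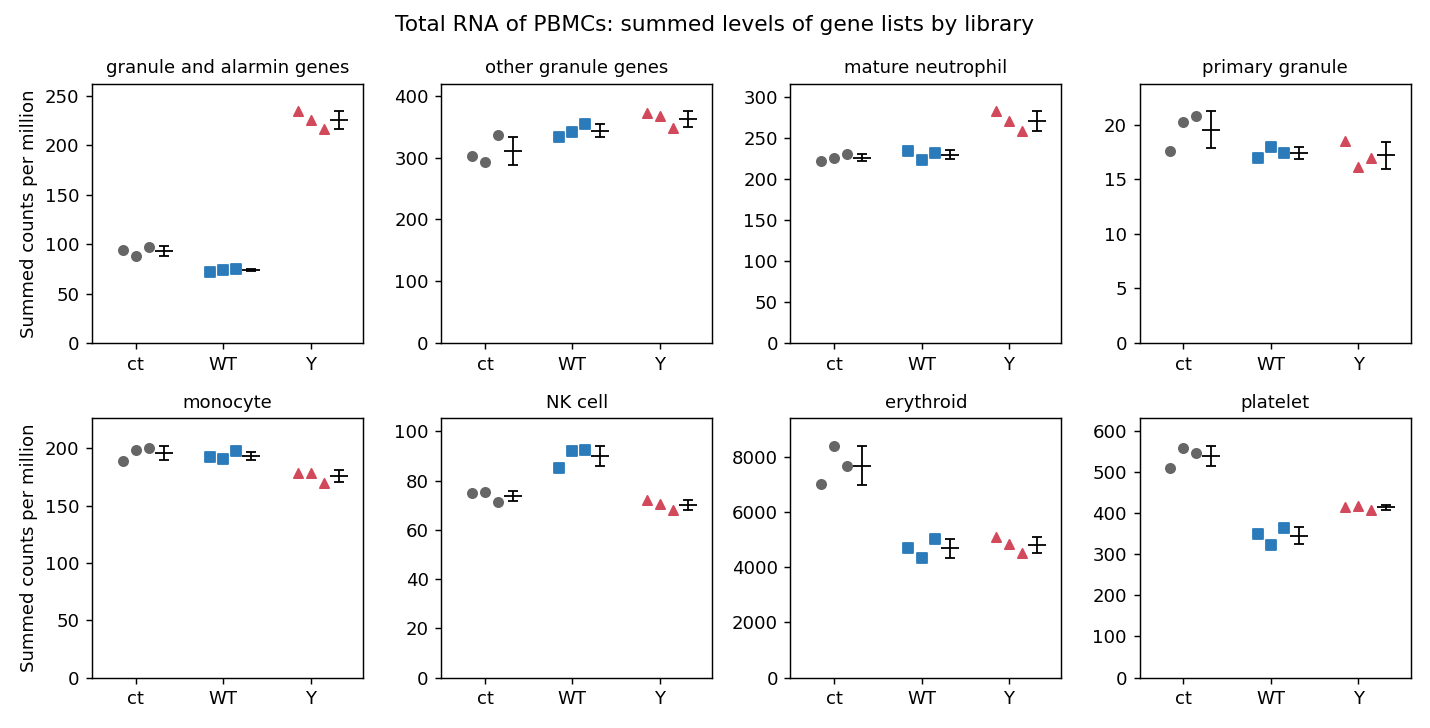
Summed CPM (y axis, linear and starting at 0) of the 10 genes and of 7 other gene lists in each PBMC library, with ct as circles, WT as squares, Y as triangles and the mean and SD as a bar. The 10 genes are highest in Y (216.7 to 234.4), while erythroid markers are highest in ct (7006 to 8390).

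Over the 9 PBMC libraries, the genes outside the set whose level was most like the mean standardised level of the 10 genes were Ppp4r3b (r = 0.978), Syne1 (r = 0.977), Adgre1 and Mmp9 (both r = 0.974), Cd177 (r = 0.971), Retnlg (r = 0.969), Mmp25 (r = 0.952), Anxa1 (r = 0.940), Atp11b (r = 0.939) and S100a6 (r = 0.924). These are correlations across libraries of 3 groups in which Y was high. Of these genes 4 were on the list of other granule genes. Adgre1, the F4/80 antigen of macrophages, was at 5.14 ± 0.0671 CPM in ct, 4.93 ± 0.131 in WT and 6.70 ± 0.0640 in Y.

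On the cell surface the set was found mainly in monocytes. Summed over the 10 genes it was at 1656 to 1681 TPM in monocytes, at 13.5, 64.8 and 30.8 in the HSPC libraries, at 36.4, 26.8 and 39.4 in NK cells, at 0.201 to 0.950 in B cells and at 0.137 to 0.352 in T cells. Monocytes were above all other libraries for this sum and for each of the 10 genes, which held for 84.5% of the genes tested against the other 4 cell types and for 91.5% against HSPCs. HSPCs and NK cells overlapped with each other and stood above B and T cells, and B and T cells overlapped.

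The alarmin pair again led in monocytes. S100a9 was at 446, 483 and 516 TPM in monocytes, 2.10, 11.9 and 5.95 in HSPCs, 9.57, 6.97 and 9.22 in NK cells, with at most 0.194 in the B and T cell libraries. S100a8 was at 413, 480 and 437 TPM in monocytes, 2.53, 12.999 and 5.49 in HSPCs, 9.32, 7.64 and 9.36 in NK cells, with at most 0.210 in B and T cells. The ranges of the pair overlapped in monocytes, in contrast to the PBMCs, where the pair was kept apart in every group. Of S100a9, 83.5% came from the transcript S100a9-201 and 16.5% from S100a9-202 in monocytes. Of S100a8, 4.14% was a transcript with a retained intron.

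Ngp was at 278, 264 and 252 TPM in monocytes, 2.55, 12.1 and 5.35 in HSPCs and 6.05, 4.46 and 6.44 in NK cells. Camp was at 193, 214 and 197 TPM in monocytes, 2.92, 12.97 and 6.44 in HSPCs and 5.55, 4.46 and 7.82 in NK cells. Lcn2 was at 167, 124 and 145 TPM in monocytes, 1.55, 8.26 and 3.80 in HSPCs and 3.34, 1.85 and 3.98 in NK cells. For each of these, HSPC 2 was the highest and HSPC 1 the lowest of the HSPC libraries, and the NK libraries lay between them. Ltf was at 49.4 to 53.7 TPM in monocytes, 0.875 to 3.47 in HSPCs and 0.775 to 1.66 in NK cells.

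On the TPM scale, Mmp8 was the member whose HSPC libraries all lay above its NK libraries, at low levels. It was at 62.4, 30.8 and 43.9 TPM in monocytes and at 0.0479, 0.269 and 0.153 in HSPCs, and was listed at 0 in all 3 NK libraries. The other 9 members were above 0 in every NK library. Wfdc21 was at 27.3, 26.3 and 19.2 TPM in monocytes, 0.779 to 2.06 in HSPCs, 0.434 to 1.19 in NK cells and 0.139 to 0.540 in B cells, and was listed at 0 in all T cell libraries. Relative to 1000000 TPM of protein-coding transcripts, Wfdc21 too was higher in every HSPC library (68.2 to 106.9) than in every NK library (17.4 to 53.8). This held for 31.3% of the 4293 genes tested on that scale. Wfdc21 was the only one of the 10 genes whose B cell libraries were all above its T cell libraries, which held for 50.3% of all genes. Abca13 (4.59 to 8.79 TPM in monocytes) and Lrg1 (4.10 to 6.44) were below 10 TPM in every library and were not tested in the main fit. At a filter of 1 TPM both were called higher in monocytes than in the other 4 cell types (2.78 and 2.48), as were 83.8% of all genes. Against HSPCs alone both were called higher too (2.71 and 2.26), as were 84.9%.

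**Figure D4:**
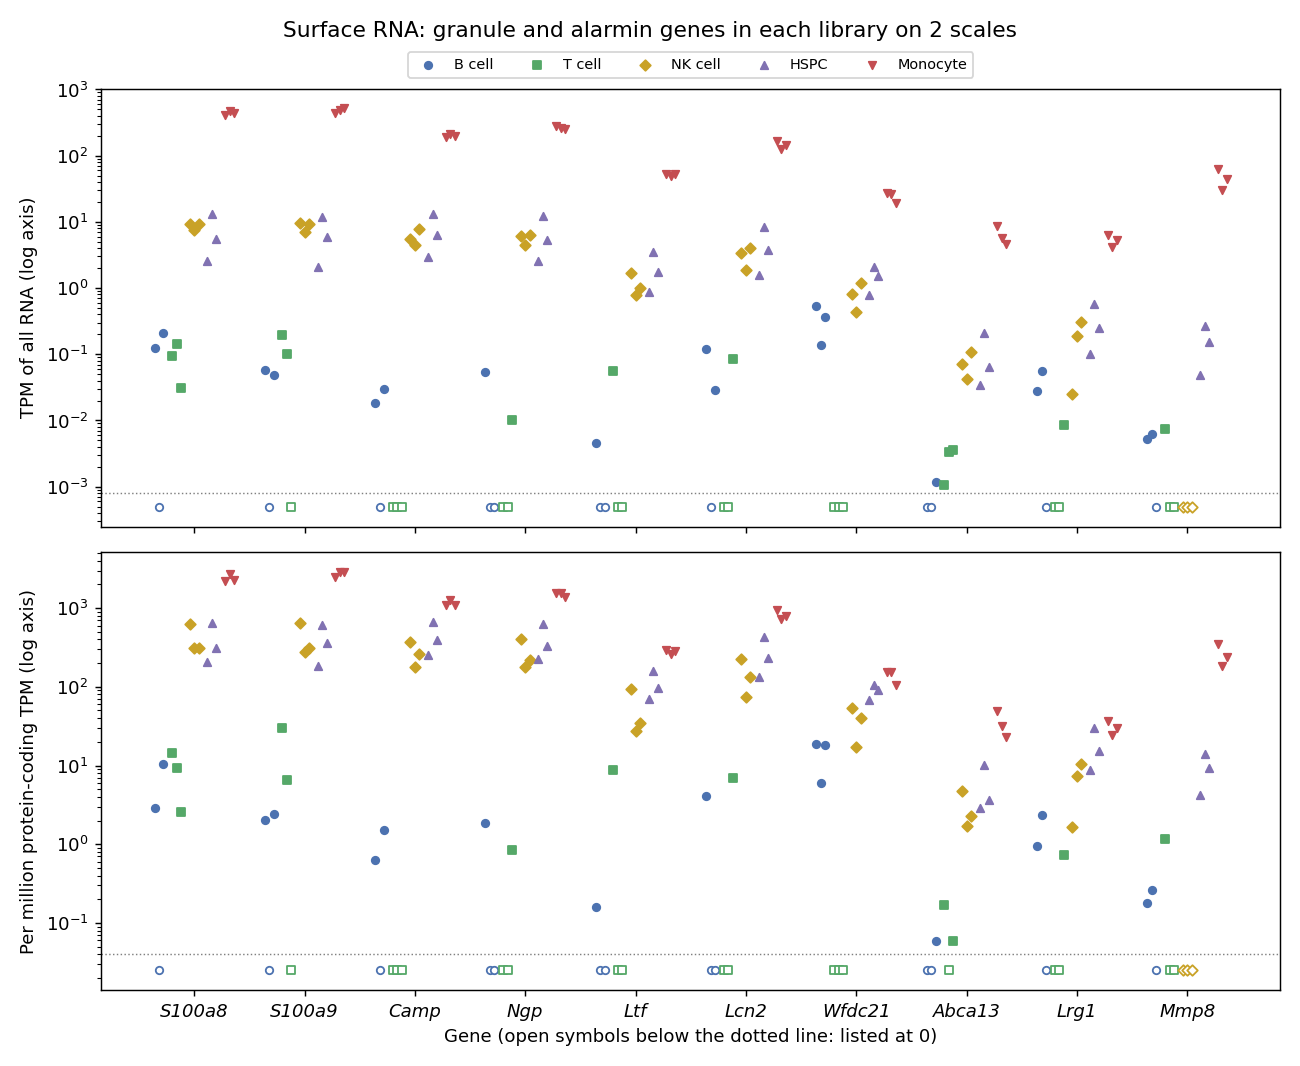
Surface RNA level of each gene in each of the 15 libraries on a log axis, as TPM of all RNA (upper panel) and relative to 1000000 TPM of protein-coding transcripts (lower panel), with open symbols below the dotted line for libraries listed at 0. All monocyte libraries are above all HSPC libraries for 10 of 10 genes on the upper scale, where 91.5% of all genes tested are. On the lower scale this holds for 8 of 10, and for 59.1% of the 4293 genes tested on that scale.

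Of the 10 genes, 8 passed the filter of 10 TPM in at least 1 library, which they did through the monocytes except for S100a8, S100a9, Camp and Ngp, which also exceeded it in HSPC 2. On log2(TPM + 1), all 8 were called higher in monocytes than in the other 4 cell types by limma, as were 89.2% of the 6830 genes tested, and their log2 fold changes ran from 4.02 for Wfdc21 to 7.38 for S100a9, with the median of all genes at 2.82. Against HSPCs alone all 8 were called higher, as were 92.5% of all genes, with log2 fold changes from 3.39 to 6.21 beside a median of 2.95. Of all calls, 95.8% were higher in the first comparison and 99.3% in the second.

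Relative to the summed TPM of protein-coding transcripts, set to 1000000 in each library, the distance shrank. The fit then tested 4293 genes in place of 6830, those above 10 TPM in protein-coding transcripts in at least 1 library. Their median was 0.69 for monocytes against the other 4 cell types and 0.56 for monocytes against HSPCs. Of the calls, 85.1% and 78.3% were higher. Scale and set of genes changed together, and their parts were not tested. On this scale S100a9 was at 2515 to 2854 units in monocytes, 184 to 617 in HSPCs and 280 to 643 in NK cells. Against HSPCs 5 of the 8 genes were called, Mmp8 (4.75 ± 0.43), S100a9 (2.98 ± 0.89), S100a8 (2.80 ± 0.72), Ngp (2.07 ± 0.45) and Camp (1.49 ± 0.36), beside 48.1% of all genes. The log2 fold changes of Lcn2 (1.77 ± 0.77), Ltf (1.43 ± 0.69) and Wfdc21 (0.63 ± 0.42) were not called. As a share of protein-coding TPM the 10 genes together made up 0.909% to 0.980% in monocytes, 0.116% to 0.331% in HSPCs, 0.107% to 0.243% in NK cells and at most 0.00545% in B and T cells.

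HSPCs against the 3 spleen cell types, all on 1 platform, had 7 of 8 genes called higher by limma, beside 8.59% of all genes. The log2 fold changes were 1.96 ± 0.27 for Camp, 1.82 ± 0.27 for Ngp, 1.59 ± 0.29 for S100a8, 1.58 ± 0.28 for Lcn2, 1.56 ± 0.30 for S100a9, 1.14 ± 0.20 for Ltf and 0.84 ± 0.18 for Wfdc21. The median of all genes was -0.17. Mmp8 gave 0.20 ± 0.16 and was not called, but it was with a pseudocount of 0.1 (1.23) and on the protein-coding scale (3.03 ± 0.35). On the protein-coding scale all 8 were called higher, beside 39.9% of the 4293 genes tested there. The log2 fold changes there were larger, from 3.03 for Mmp8 to 5.77 for Camp. The pseudocount of 1 was kept on that scale, where levels are scaled up, so it weighs less. Its part in the larger values was not tested. The share of calls that were higher was 27.2% in the main fit and 63.8% on that scale, where the median was 0.25, over different sets of genes. Each of these differences averages over spleen cells that lay far apart. On the TPM scale HSPC libraries lay above those of B cells and of T cells for all 10 genes (14.8% and 34.3% of all genes tested), and above those of NK cells for 1 (2.18%), so that 1 gene, Mmp8, had every HSPC library above every spleen library (1.60% of all genes).

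In make-up the surface libraries differed from each other. Camp, Ngp and Ltf made up 44.0% to 47.1% of the summed TPM of the 10 genes in HSPCs, 36.1% to 38.7% in NK cells and 30.0% to 31.7% in monocytes. S100a8 and S100a9 made up 34.3% to 38.4% in HSPCs, 47.1% to 54.5% in NK cells and 51.9% to 57.3% in monocytes. HSPCs overlapped with neither of the others on either share. Per TPM of S100a8 there was 0.933 to 1.01 TPM of Ngp in HSPCs, 0.583 to 0.688 in NK cells and 0.55 to 0.67 in monocytes. Surface and PBMC tables were made by different assays and pipelines, so the shares are set side by side and were not compared by a test.

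**Figure D5:**
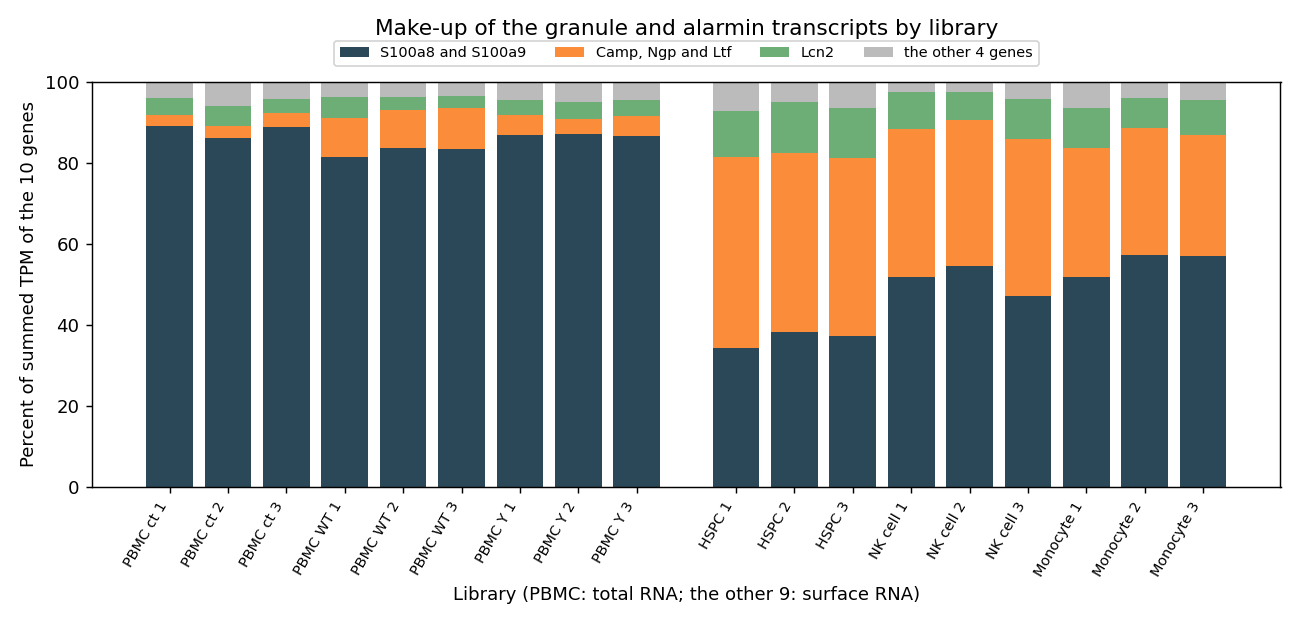
Share of the summed TPM of the 10 genes (y axis, percent) taken by S100a8 and S100a9, by Camp, Ngp and Ltf, by Lcn2 and by the other 4 genes in each PBMC library and in the HSPC, NK cell and monocyte surface libraries. B and T cells are left out because their sums are below 1 TPM. The share of Camp, Ngp and Ltf is 2.62% to 3.57% in ct, 9.34% to 10.1% in WT and 44.0% to 47.1% in HSPCs.

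Genes on the primary granule list also differed between HSPCs and the spleen cells. Of 6 tested, 5 were higher in HSPCs, among them Mpo, the myeloperoxidase gene (5.30 ± 0.24, limma adjusted p = 6.08e-09), Prtn3, the proteinase 3 gene (4.76 ± 0.24, limma adjusted p = 1.00e-08), and Elane, the neutrophil elastase gene (4.70 ± 0.27, limma adjusted p = 1.00e-08). Ctsc, whose product activates these proteases, was lower (-1.65 ± 0.22, limma adjusted p = 4.68e-05). The list summed to 118 to 260.2 TPM in HSPCs, 924 to 1369 in monocytes and 9.89 to 20.5 in NK cells. In NK cells the list was thus below the sum of the 10 genes, 26.8 to 39.4 TPM, and in HSPCs above it. Other lists differed between HSPCs and spleen cells too, where 8.59% of all genes were higher. Called higher were 8 of 8 cell cycle genes, 5 of 5 platelet markers and 2 of 2 eosinophil and basophil markers. Called lower were 7 of 7 B cell, 2 of 2 T cell and 6 of 6 NK cell markers, beside 1571 of all 6830 genes tested. The part of these lists was not tested. Of 9 tested regulators of granulocyte differentiation, 5 were higher in HSPCs than in the spleen cells and 2 lower. Higher were, among others, Cebpa, the C/EBP factor of early granulocyte commitment (1.66 ± 0.13, limma adjusted p = 4.28e-07), Myb (1.21) and Cebpb (0.51). Lower were Stat3 (-1.29 ± 0.30, limma adjusted p = 0.00474) and Irf8 (-0.70 ± 0.23, limma adjusted p = 0.0284).

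Between monocytes and HSPCs, 6 of 6 tested genes on the primary granule list were higher in monocytes on the TPM scale, as were 92.5% of all genes. Those with the largest log2 fold changes were Ctsc (5.90), Ms4a3 (3.13) and Ctsg (3.00). On the protein-coding scale Ctsc was still called higher (4.18), Mpo (-1.65) and Elane (-0.98) were called lower, and Ms4a3 (-0.07), Ctsg (-0.37) and Prtn3 (-0.69) were not called. The median of the list went from 2.86 to -0.53. Other granule genes stayed higher in monocytes on both scales, with 11 of 11 called on TPM (92.5% of all genes) and 10 of 11 per protein-coding TPM (48.1% of all genes), Lyz2, the lysozyme gene (8.26), Chil3 (8.01) and Cybb (6.58) leading on the TPM scale. Mature neutrophil genes summed to 369 to 489 TPM in monocytes, 5.21 to 12.0 in HSPCs and 9.78 to 20.4 in NK cells. In B cells they summed to 18.5 to 29.6 TPM and in T cells to 5.05 to 16.5. Per protein-coding TPM 5 of 7 were higher in monocytes than in HSPCs. None of the 14 was at 0 in a monocyte or HSPC library. Markers of monocytes summed to 11.9 to 28.1 TPM in HSPCs and 12.1 to 23.2 in NK cells, where the 10 genes summed to 13.5 to 64.8 and 26.8 to 39.4. The same markers summed to 14.2 to 18.0 TPM in B cells and 7.75 to 18.4 in T cells, where the 10 genes summed to 0.201 to 0.950 and 0.137 to 0.352. The part of the monocyte markers in the levels of the 10 genes was not tested.

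The genes whose surface level was most like the mean standardised level of the 8 tested members, over 15 libraries of 5 cell types, were Lyz2, Ifitm3 and Anln (all r = 0.996), Diaph3 (r = 0.995), Incenp and Spc24 (both r = 0.994), and Cdc45, H4c14, Kif15 and Mki67 (all r = 0.993). Anln, Diaph3, Incenp, Spc24, Cdc45, Kif15 and Mki67 encode proteins of cell division. Mki67, for example, was at 71.98 ± 3.95 TPM in monocytes, 3.21 ± 0.767 in HSPCs, 3.16 ± 1.34 in NK cells, 0.385 ± 0.219 in B cells and 0.266 ± 0.0844 in T cells. The correlations rest on the same order of cell types, with monocytes far above the rest, and across the 15 libraries depth and base composition are shared with the library.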

How the data were processed

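PBMC tables were made by the authors with RSEM and hold expected counts and TPM per gene, deposited per library. Surface tables were made by the authors with kallisto and hold deposited TPM per transcript, in 1 table for each cell type. The submitters' processing notes name Trim Galore or cutadapt, STAR and featureCounts, with mm10 (and hg38) as builds. Versions are not given in those notes.

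After rounding, the expected counts were tested with edgeR 4.0.16 (TMM, filterByExpr, quasi-likelihood test) in 1 fit of the 9 PBMC libraries. TPM were summed by gene name, kept above 10 TPM in at least 1 library, and tested as log2(TPM + 1) with limma 3.58.1 (trend) in 1 fit of the 15 surface libraries. TPM are not counts, so no count test was used on the surface, and fold changes of low genes are understated on this scale. Adjusted p-values are Benjamini-Hochberg over all genes tested, with calls at 0.05. Both procedures were tested on simulated data, with an outcome that is not given here. Correlations of the deviations of same-numbered libraries ran from -0.0613 to 0.0594 in PBMCs. On the surface they were 0.230 to 0.486 for T and NK cells, and -0.285 to 0.118 for the other pairs of groups. No comparison sets T against NK cells, but both are averaged on the same side in HSPCs against spleen cells and in monocytes against the other 4 cell types. The main fit takes their libraries as independent. The main fits have no replicate block.

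The 10 members and the 16 other gene lists (154 entries) were chosen with earlier results of these data known. All 10 members are named in every comparison, and from each other list up to 3 called genes per direction with the largest log2 fold change, except where the text says otherwise. The 10 genes most like the members by Pearson's r are named as well. Alternatives were DESeq2 1.42.0, RLE scaling, other filters and pseudocounts, a protein-coding scale, a replicate block, the ribosomal RNA gene left out, and each library left out. Summing only the 102001 transcripts listed in all 5 tables was added after seeing the data. Promoters are from RefSeq tables (GRCm38.p6).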

Additional observations from a re-analysis of the deposited data

How the results depend on the processing

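No member changed direction in a comparison in which it was called, under any alternative run. The S100a9 difference between WT and ct was not called by DESeq2 or with the replicate block, and Camp was called in WT against ct without a filter. Among the members, DESeq2 gave no adjusted p for Abca13, Camp and Wfdc21. With a pseudocount of 10, S100a9, Wfdc21 and the marker Kit were not called in HSPCs against spleen cells, and with 0.1 Mmp8 was (1.23). Ms4a3 and Ctsg turned to -0.066 and -0.37 in monocytes against HSPCs on the protein-coding scale.

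Counts of calls over all genes depended on the settings. In WT against ct they were 50 higher and 120 lower with DESeq2 (main 89 and 186) and 238 higher without a filter. In Y against ct they were 133 and 124 without a filter (main 31 and 51). In Y against WT they were 60 lower with DESeq2 (main 51 and 95), and 132 and 234 without a filter. In monocytes against the other cell types (main 6092 and 269) they were 1057 and 116 at a filter of 50 TPM, 14172 and 613 at 1 TPM, and 2645 and 462 on the protein-coding scale. In HSPCs against spleen cells (main 587 and 1571) they were 273 higher with a pseudocount of 10, 176 and 596 at 50 TPM, and 1711 and 972 on the protein-coding scale. In monocytes against HSPCs (main 6315 and 45) they were 27 lower with a pseudocount of 10, 1227 and 16 at 50 TPM, 14354 and 129 at 1 TPM, and 2063 and 573 on the protein-coding scale, where 5 members were called. Filters and the protein-coding scale change which genes are tested, and for the other settings the cause was not tested.

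Leaving out 1 library gave 56 to 126 higher and 111 to 171 lower in WT against ct, 17 to 116 and 17 to 51 in Y against ct, 26 to 65 and 26 to 112 in Y against WT, and 335 to 702 and 1043 to 2113 in HSPCs against spleen cells. The counts moved by over 1.5 times without ct 1 (57), ct 2 (56), ct 3 (123 lower) or WT 2 (57 and 111) in WT against ct, without ct 1 (20), ct 2 (33 lower), ct 3 (116), Y 1 (28 lower), Y 2 (19 and 23) or Y 3 (17 and 17) in Y against ct, without WT 2 (31 and 50), WT 3 (33 and 47), Y 1 (33 and 49), Y 2 (30 and 43) or Y 3 (26 and 26) in Y against WT, and without HSPC 1 (1043 lower), HSPC 2 (335) or HSPC 3 (369) in HSPCs. Members called were 6 to 8 in Y against ct, 5 to 7 in Y against WT and 2 to 3 lower in WT against ct. With the replicate number as a block, 8, 7, 2 and 2 members were called (Y against ct, Y against WT, WT against ct higher and lower), and calls over all genes were 75 and 159, 33 and 41, and 46 and 82 in the PBMC comparisons. On the surface, where same-numbered T and NK cell libraries deviated together (0.230 to 0.486, other numbers -0.416 to 0.144), as a hint from the data and not the design, the block gave 641 and 1688 calls in HSPCs against spleen cells, with 7 members called.

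Camp, Abca13 and Wfdc21 rest on 1 to 27 counts per PBMC library, and surface depth is unknown, so a listed 0 there gives no limit.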
